A study of Arabidopsis thaliana with 27 samples.

Results

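The genes described here are the alpha-expansins EXPA4, EXPA8, EXPA9 and EXPA15 of Arabidopsis thaliana. They were chosen by name, as the probe sets that the platform annotation gives to 1 of these genes and to no other, a rule that uses no measured value. Each gene had 1 such probe set, so that 4 of the 22743 probe sets tested are described: 267590_at for EXPA4 (AT2G39700), 255822_at for EXPA8 (AT2G40610), 250992_at for EXPA9 (AT5G02260) and 266770_at for EXPA15 (AT2G03090). All 4 matched a gene of the TAIR10.1 reference table. The values name no genome build, so no coordinates are given.

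Expansins are secreted proteins that loosen the primary cell wall at acidic pH without cutting its polymers, and they let the wall extend under turgor. Alpha-expansins (EXPA) and beta-expansins (EXPB) make up the proteins with shown loosening activity, while expansin-like A and B proteins (EXLA, EXLB) share their structure and have no settled activity. Expansin genes are commonly induced where plant cells enlarge, and several respond to auxin and brassinosteroids. In xylem, cells enlarge before they deposit a secondary wall, which stops further extension.

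The cells were a habituated suspension culture of accession Col-0, for which the labels name no mutation or transgene. Cells 7 days old went into fresh MS medium with 3% sucrose, 6 µg/ml of the auxin NAA, 1 µg/ml of the cytokinin BAP and 4 µM epibrassinolide, a brassinosteroid, which leads some of them to become tracheary elements, the water-conducting cells of xylem. Total RNA was taken at 9 times, every 12 h up to 96 h, in 3 independent time-courses (A, B and C) on 27 arrays, 1 per sample (n = 3 per time). By the labels, cells were dividing at 0 h, began to expand at 12 h, began to differentiate at 24 h, deposited secondary wall between 60 h and 84 h and had finished it at 96 h. All arrays come from 1 culture line. No hormone-free culture was analysed here, and a difference from 0 h joins the effects of transfer, age and hormones.

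The values are log2 signals after RMA, as deposited, with 0 as the lowest value of the table. A difference of 1 is therefore a doubling of signal, and differences that start or end near 0 are understated. The values come with no detection calls. A comparison is called changed where limma gave a Benjamini-Hochberg adjusted p under 0.05 over all 22743 probe sets. Array medians ran from 0.85 to 1.00 and 272 to 978 probe sets per array stood at exactly 0. The GAPDH control has probe sets at both ends of its transcript, and signal at the 3′ end exceeds that at the 5′ end more strongly where RNA is degraded. The 3′ minus 5′ difference lay between 2.99 and 4.38 log2 units on 5 arrays of time-course B (0 h and the 4 times from 60 h), while the remaining 22 arrays had 0.35 to 1.89.

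Across all 9 times, EXPA8 alone of the 4 genes was called by the moderated F test, with F = 43.7 and adjusted p = 5.67e-09 by limma. That is 1 of 4, where 23.1% of all probe sets were called. The F test gave adjusted p = 0.901 for EXPA4, 0.214 for EXPA9 and 0.0857 for EXPA15 by limma. The 4 probe sets lay in different parts of the signal range. EXPA4 ran from 7.87 to 10.6 on the 27 arrays, EXPA8 from 0.38 to 4.02, EXPA9 from 0 to 0.89 and EXPA15 from 0.46 to 1.25. Signals of different probe sets depend on their probes, so these ranges give no order of RNA amounts between the genes.

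**Figure D1:**
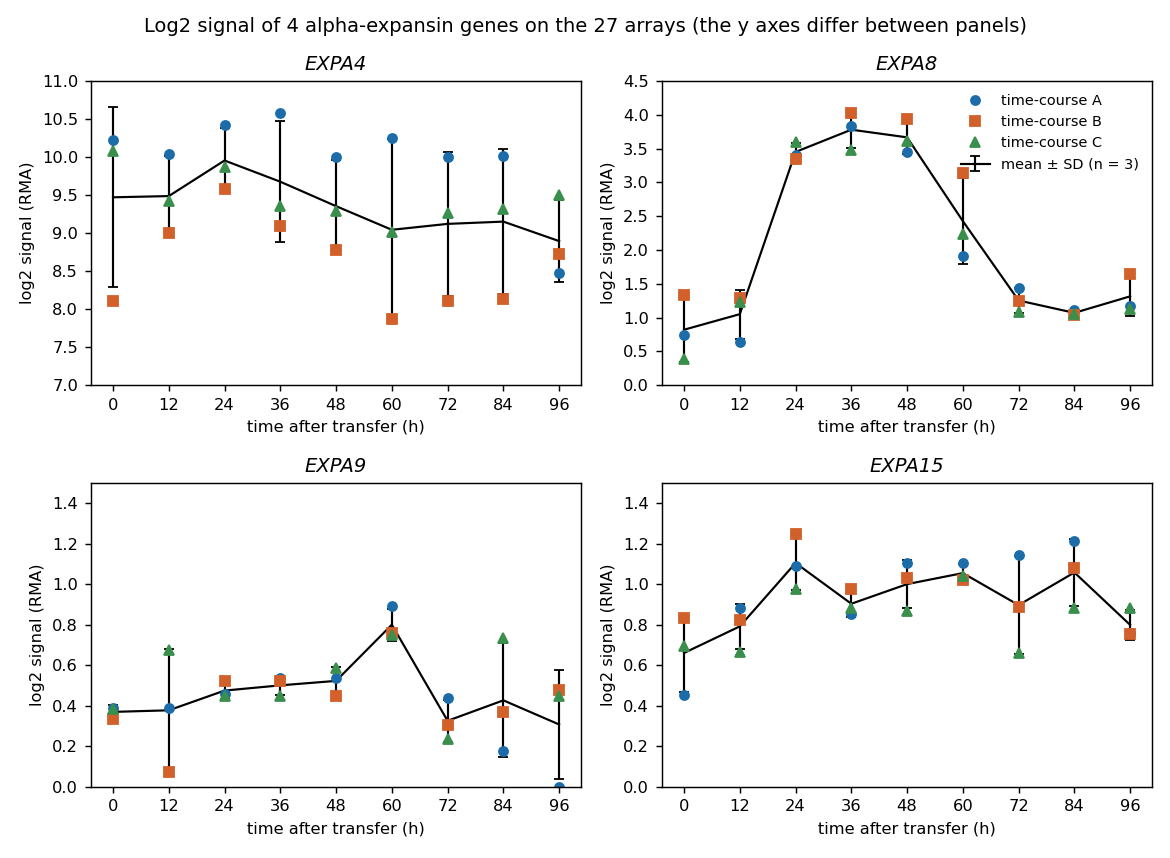
Log2 signal (RMA) of EXPA4, EXPA8, EXPA9 and EXPA15 against hours after transfer, 1 panel per gene with its own y axis. Points are single arrays by time-course, and the line and bars are the mean ± SD of 3 arrays. EXPA8 stood between 3.35 and 4.02 on the 9 arrays of 24 h to 48 h. EXPA4 rose from 12 h to 24 h in A, B and C, while its differences from 0 h shared no sign among them at any later time.

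EXPA8 rose between 12 h and 24 h, held a plateau through 48 h and was back near its 0 h signal at 72 h. At 24 h its log2 signal was 3.40, 3.35 and 3.605 in time-courses A, B and C, against 0.63, 1.29 and 1.23 at 12 h and 0.75, 1.33 and 0.38 at 0 h. At 36 h it was 3.84, 4.02 and 3.48, and at 48 h it was 3.45, 3.94 and 3.61. All 9 arrays of these 3 times lay above all 6 arrays of 0 h and 12 h.

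The rise of EXPA8 over 0 h was 2.63 ± 0.27 log2 units at 24 h, with a 95% interval of 2.08 to 3.18 (SE, n = 3, adjusted p = 7.64e-07 by limma). At 36 h the difference was 2.96 ± 0.27, with an interval of 2.41 to 3.51 (adjusted p = 1.54e-07 by limma). The 48 h difference was 2.85 ± 0.27 (adjusted p = 2.86e-07 by limma), with an interval of 2.29 to 3.40, so the 3 intervals covered each other's means. The 0 h signals of EXPA8 lay around the array medians, in the low range of the table, so no fold change of its RNA is given. The highest array was that of 36 h in A and in B and that of 48 h in C. In bulk RNA, more expressing cells and more RNA per cell cannot be told apart, for this rise and for every difference below.

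The step itself lay within 12 h. At 12 h EXPA8 differed from 0 h by 0.23 ± 0.27 log2 units (95% interval -0.32 to 0.78, adjusted p = 0.716 by limma), with a fall of 0.11 in A, a fall of 0.04 in B and a rise of 0.84 in C. The sign of that mean turned without time-course C (-0.08). From 12 h to 24 h the signal gained 2.40 ± 0.27 (SE, n = 3, adjusted p = 1.32e-06 by limma), and the 24 h array was the higher in all 3 time-courses. The labels place the start of expansion at 12 h and the start of differentiation at 24 h.

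EXPA8 was intermediate at 60 h, the first time of secondary wall deposition. The 60 h arrays gave 1.91, 3.14 and 2.24 in A, B and C, against 3.45, 3.94 and 3.61 at 48 h. Every 60 h array was thus below every 48 h array and above every 0 h array. Against 0 h the signal was still 1.61 ± 0.27 log2 units higher (interval 1.05 to 2.16, SE, n = 3, adjusted p = 2.29e-04 by limma). This call was lost without time-course C (1.48, adjusted p = 0.0534 by limma) and in a fit to the 6 arrays of these times alone (adjusted p = 0.0895 by limma).

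The fall of EXPA8 between 48 h and 60 h, 1.24 ± 0.27 log2 units (difference -1.24, SE, n = 3), did not pass in the fit without pairing (adjusted p = 0.0881 by limma). It passed with the time-course as a block (adjusted p = 0.0343 by limma). The 60 h array of B, the highest of the 3, also had the highest GAPDH 3′ minus 5′ difference of all arrays, 4.38. Without the 5 arrays of B with a large difference, a setting chosen after seeing the data, the fall was 1.59 (difference -1.59, adjusted p = 0.0345 by limma). Among all probe sets 0.0132% were called in this comparison, 3 in number.

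At later times EXPA8 did not pass against 0 h. It gave 1.43, 1.25 and 1.08 in A, B and C at 72 h, 1.12, 1.04 and 1.06 at 84 h and 1.17, 1.65 and 1.12 at 96 h, and each of these times overlapped the 0 h arrays (0.38 to 1.33). The differences were 0.43 at 72 h, 0.25 at 84 h and 0.49 at 96 h, each with SE 0.27 (adjusted p = 0.503, 0.76 and 0.429 by limma). They depended on single 0 h arrays. Without that of B they were 0.69, 0.50 and 0.75, and without that of C 0.22, 0.03 and 0.28, with no call (adjusted p = 0.184 to 0.989 by limma). The 96 h interval reached from -0.06 to 1.05 with all arrays.

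The labels allow a comparison of wall deposition (mean of 60 h, 72 h and 84 h) with the times of differentiation before it (mean of 24 h, 36 h and 48 h). EXPA8 was lower during deposition by 2.05 ± 0.15 log2 units (difference -2.05, 95% interval -2.37 to -1.73, adjusted p = 3.75e-08 by limma). All 9 arrays of the deposition times (1.04 to 3.14) lay below all 9 arrays of the earlier times (3.35 to 4.02). EXPA8 was the 1 of 4 alpha-expansins called here, where 6.3% of all probe sets were called, and the 1 called among 18 measured members of the expansin superfamily.

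**Figure D2:**
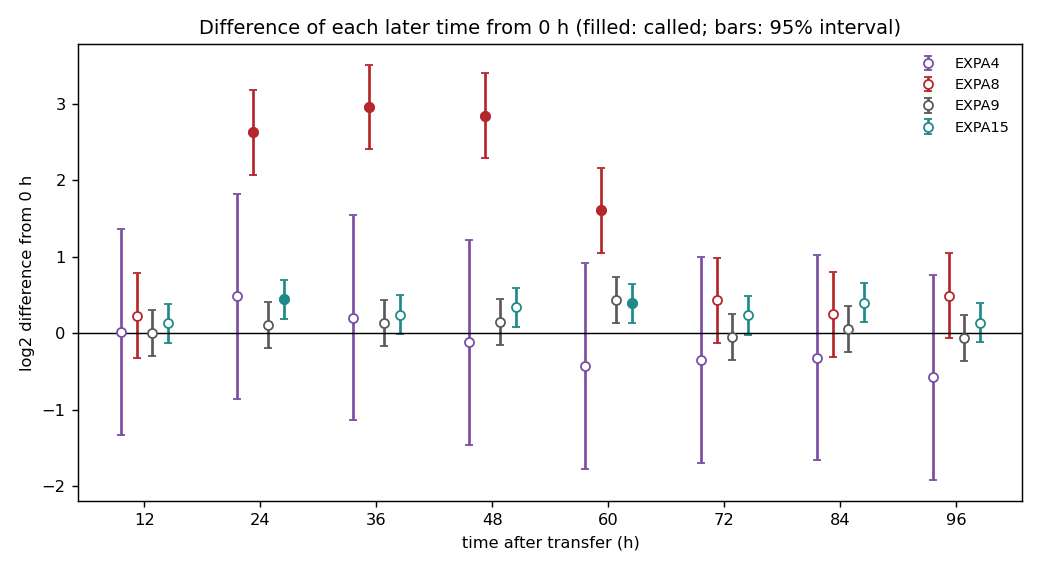
Log2 difference from 0 h at each later time for EXPA4, EXPA8, EXPA9 and EXPA15, with 95% intervals from the limma fit (n = 3 per time). Filled points were called at adjusted p under 0.05. EXPA8 was called from 24 h to 60 h, EXPA15 at 24 h and 60 h, and the EXPA4 intervals are the widest of the 4 genes.

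EXPA4 had strong signal on every array and no difference between times that passed. Its log2 signal at 24 h was 10.4, 9.58 and 9.87 in A, B and C, against 10.2, 8.11 and 10.08 at 0 h. In between, the 12 h arrays gave 10.0, 9.00 and 9.43, and the later ones 10.6, 9.09 and 9.35 at 36 h and 10.0, 8.78 and 9.29 at 48 h. In these 5 times the ranges of the groups overlapped throughout, and time-course B was the lowest of the 3 each time. The 24 h array of EXPA4 was above the 12 h array and the 48 h array in all 3 time-courses. Its mean gain from 12 h to 24 h, 0.47 ± 0.65 (SE, n = 3), did not pass (adjusted p = 0.773 by limma).

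During wall deposition EXPA4 gave 10.2, 7.87 and 9.01 at 60 h, 9.99, 8.11 and 9.26 at 72 h and 10.0, 8.13 and 9.31 at 84 h. At 96 h it gave 8.47, 8.72 and 9.49, and there A was the lowest of the 3 arrays and 1.76 below its own 0 h value. Averaged over the 9 times, EXPA4 was at 10.0 in A, 8.60 in B and 9.45 in C, so the time-courses stood further apart than the 9 time means, which spanned 1.06.

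The differences of EXPA4 from 0 h ran from -0.58 at 96 h (95% interval -1.92 to 0.77) to 0.48 at 24 h (interval -0.86 to 1.83), each with SE 0.65 (n = 3). Adjusted p over the 8 later times ran from 0.74 to 0.997 by limma. The residual SD of EXPA4 in this unpaired fit was 0.842, against a median of 0.244 over all probe sets, and 98.9% of probe sets had a smaller one. That SD, and so the width of the intervals, includes the spread between the time-course means. A change of up to 1.83 log2 units at 24 h lies within this unpaired interval. No EXPA4 interval with the time-course as a block is given here. Deposition against the earlier times gave -0.56 ± 0.37 (interval -1.33 to 0.22, adjusted p = 0.454 by limma).

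EXPA4 read lower on the arrays of B with a large GAPDH difference than on the other arrays of B. Time-course B was also the lowest of the 3 at 12 h to 48 h, where its GAPDH difference was 0.73 to 1.89. On the 5 arrays of B with a GAPDH difference of 2.99 to 4.38, EXPA4 read 7.87 to 8.72 (median 8.11). The other 4 arrays of B, at 0.73 to 1.89, read 8.78 to 9.58, and the 18 arrays of A and C, at 0.35 to 1.77, read 8.47 to 10.6 (median 9.93). With the GAPDH difference as a covariate the 24 h difference was -0.12 and that of deposition against the earlier times 0.11, and neither passed (adjusted p = 0.887 and 0.896 by limma). Without the 5 arrays the 24 h difference was -0.20, and the EXPA4 differences at 12 h and 36 h, above 0 with all arrays, were -0.67 and -0.48. That of 60 h against 48 h, below 0 with all arrays, was 0.28 without them. This setting drops B, the lowest time-course on average, at 0 h and 60 h and keeps it at 12 h to 48 h, so the compared groups hold unlike time-courses. Within A and C, EXPA4 differed from its own 0 h by 0.19 and -0.21 at 24 h, -0.19 and -0.65 at 12 h, and 0.35 and -0.73 at 36 h. From 48 h to 60 h it rose in A (10.0 to 10.25) and fell in C (9.29 to 9.01). Whether loss of 5′ ends set the EXPA4 signal was not tested beyond these values.

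**Figure D3:**
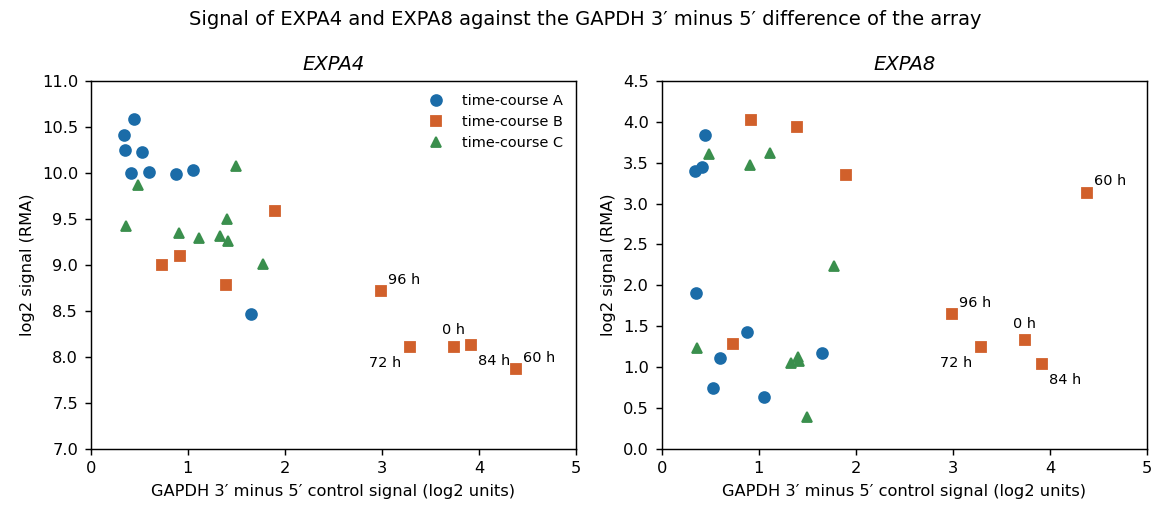
Log2 signal of EXPA4 (left) and EXPA8 (right) against the GAPDH 3′ minus 5′ difference of the same array, with 27 points marked by time-course. The 5 labelled arrays of time-course B lie at 2.99 to 4.38 and hold EXPA4 values of 7.87 to 8.72, while EXPA8 on them runs from 1.04 to 3.14, inside its range on the other 22 arrays.

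EXPA9 stayed near the floor of the table, with a single time that stood out. At 60 h it gave 0.89, 0.76 and 0.75 in A, B and C, against 0.39, 0.33 and 0.39 at 0 h, and these were the 3 highest of its 27 values. The 60 h array was also the highest of its time-course in A, B and C. The difference of 0.43 ± 0.14 log2 units (SE, n = 3) did not pass in the unpaired fit (adjusted p = 0.0538 by limma) and passed with the time-course as a block (adjusted p = 0.0459 by limma).

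At the other times EXPA9 ran from 0 to 0.73, its differences from 0 h lay between -0.06 and 0.15, and 0 of the 8 later times were called in the unpaired fit. The array of A at 96 h was listed at 0. Probe sets whose mean over the arrays lay within 0.1 log2 units of that of EXPA9, 2790 in number, had a median difference of 0.10 at 60 h, the highest median of the 8 later times.

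EXPA15 was also near the floor and was called at 24 h and 60 h. At 24 h it gave 1.09, 1.25 and 0.98 in A, B and C and at 60 h 1.102, 1.02 and 1.04, against 0.46, 0.83 and 0.69 at 0 h. Neither group overlapped 0 h. The differences were 0.44 ± 0.12 and 0.39 ± 0.12 log2 units (SE, n = 3, adjusted p = 0.0188 and 0.0362 by limma). Both calls depended on single arrays. Without the 0 h array of A they were 0.34 and 0.29 (adjusted p = 0.104 and 0.181 by limma), and without the 5 arrays of B with a large GAPDH difference the 60 h call was lost (0.50, adjusted p = 0.0666 by limma). The 24 h call was also lost without the 24 h array of B (0.37, adjusted p = 0.0929 by limma), and the 60 h call without the 0 h array of C or any one of the 60 h arrays (0.37 to 0.41, adjusted p = 0.0663 to 0.0853 by limma).

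Among the remaining times, EXPA15 stood 0.34 above 0 h at 48 h, with 1.102, 1.03 and 0.87, and 0.40 above it at 84 h, with 1.21, 1.08 and 0.88. Neither passed in the unpaired fit (adjusted p = 0.0821 and 0.0581 by limma), and the 84 h difference passed with the time-course as a block (adjusted p = 0.0362 by limma). At 12 h, 36 h, 72 h and 96 h its arrays ran from 0.66 to 1.14 with differences of 0.13 to 0.24. The 1161 probe sets with a mean within 0.1 of that of EXPA15 had median differences of -0.01 at 24 h and at 60 h.

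Counted over the 4 genes, 0 were called at 12 h (17.1% of all probe sets were), 2 at 24 h (12.2%), 1 at 36 h (13.5%), 1 at 48 h (11.7%) and 2 at 60 h (13.2%). None of the 4 was called at 72 h (6.57%), 84 h (6.31%) or 96 h (4.51%), and 1 was called at 24 h against 12 h (12.6%). Every called difference from 0 h was a rise. The median difference of the 4 genes was 0.46 at 24 h and 0.41 at 60 h, against 0.03 and 0.04 over all probe sets. With EXPA8 the one large change, these medians rest on values under 0.5. That of 24 h rests on EXPA15 and EXPA4, and the EXPA4 difference changed sign without the 5 arrays of B with a large GAPDH difference. That setting keeps B at 24 h and drops it at 0 h.

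Of the expansin superfamily, 18 genes had a probe set of their own, 14 besides the 4 described, and 7 of the 18 were called by the F test (23.1% of all probe sets were). Signal under 2 on every array was found for 11 of the 18, EXPA9 and EXPA15 among them. At 12 h, before the EXPA8 rise, 5 of the 14 fell and 0 rose (17.1% of all probe sets were called), and these were the 5 that reached 2 on any array. EXPB3, a beta-expansin, differed from 0 h by -3.46 ± 0.40 log2 units, EXPA20 by -2.57 ± 0.45, and the expansin-like EXLA3 and EXLA1 by -3.48 ± 0.45 and -2.54 ± 0.58 (SE, n = 3). EXLA2, named after its value was seen because it completes the count, differed by -1.45 ± 0.45. All 5 were also called lower without the 5 arrays of B with a large GAPDH difference. EXPA4 differed by 0.02 ± 0.65 at 12 h (interval -1.33 to 1.36), and by -0.67 without those 5 arrays, and passed in neither (adjusted p = 0.997 and 0.502 by limma). Without them, time-course B is left at 12 h and not at 0 h. EXPA8 stood too low at 0 h for a fall of that size to be seen. Whether these responses differed between genes was not tested.

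Between 12 h and 24 h EXPB3, EXPA20 and EXLA3 rose along with EXPA8, so that 4 of the 18 rose and 0 fell. Of all probe sets 12.6% were called in this comparison. At 24 h EXPB3 gave 8.09, 7.84 and 8.03 in A, B and C, against 3.77, 4.16 and 4.54 at 12 h, having read 7.78, 7.16 and 7.90 at 0 h. EXPA20 likewise gave 6.09, 5.58 and 6.17 at 24 h, against 3.36, 2.27 and 2.78 at 12 h and 5.71, 5.42 and 5.01 at 0 h. Both genes had regained their 0 h range or stood above it at 24 h. Against 0 h at 24 h 0 of the 14 rose and EXLA1 fell (-1.91 ± 0.58, SE), where 12.2% of all probe sets were called. EXLA1 was called lower at each time from 12 h to 84 h.

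Rises over 0 h among the 14 were small and at low signal. EXPB2 was called at 36 h, 60 h, 72 h and 96 h, with differences of 0.62 to 0.94, and EXPA7, a gene known from root hairs, at 60 h with 0.37. Both were named after their values were seen because so few rose. Without the same 5 arrays EXPB2 was called at 36 h, 72 h, 84 h and 96 h, EXPA7 at no time, and EXLA1 at 12 h, 36 h, 48 h and 60 h alone. In deposition against the earlier times 0 of the 14 were called (6.3% of all probe sets were). Their median difference was -0.04, against -0.0034 over all probe sets.

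**Figure D4:**
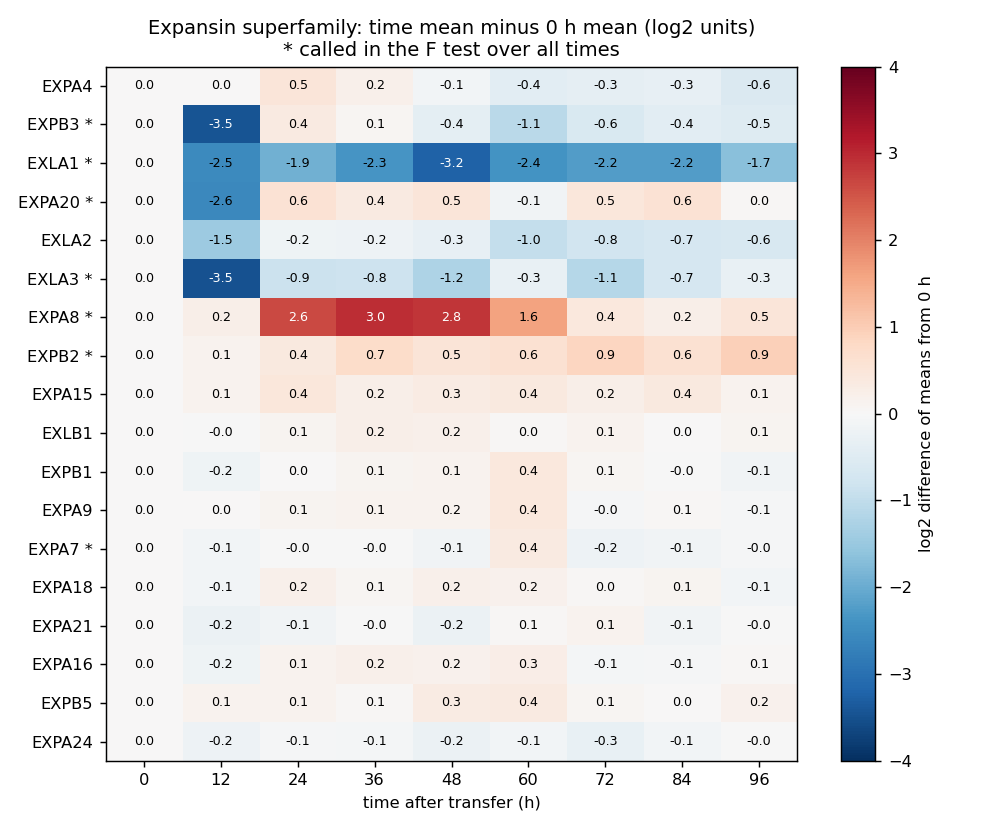
Mean log2 signal at each time minus the 0 h mean for the 18 expansin superfamily genes with a probe set of their own, ordered by their highest time mean (n = 3 per time). Asterisks mark genes called by the F test over all times. EXPA8 shows positive differences of 1.61 to 2.96 from 24 h to 60 h, and EXPB3, EXPA20 and EXLA3 show their lowest values at 12 h.

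Xyloglucan endotransglucosylases cut and rejoin xyloglucan chains and are the other wall-modifying family listed here. Of 10 measured, 3 fell and 1 rose at 12 h (17.1% of all probe sets were called), and 4 rose and 1 fell at 24 h against 12 h (12.6%). XTH32 fell by 3.91 at 12 h (difference -3.91 ± 0.76) and gained 3.75 ± 0.76 by 24 h, while EXGT-A3 rose by 2.32 ± 0.28 and then differed by -2.81 ± 0.28 (SE, n = 3). At the times of the EXPA8 plateau none of the 10 was called higher than at 0 h. Called lower were 1 at 24 h (12.2% of all probe sets were called), 3 at 36 h (13.5%) and 2 at 48 h (11.7%). XTH16 was lower at each of these times (-2.67, -2.46 and -2.61, each with SE 0.21), and XTH19 at 36 h and 48 h (-2.87 and -2.16, SE 0.65). EXGT-A3 was the other gene called lower at 36 h. This call and that of XTH19 at 48 h were lost without the arrays of B with a large GAPDH difference. The XTH16 calls and that of XTH19 at 36 h were kept. Of the primary wall synthesis list COB alone was measured, and no gene of the turgor list was.

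Of the auxin and brassinosteroid response list 10 genes were measured, all of the GH3 and IAA families. At 24 h 4 rose and 0 fell (3 and 0 without the same 5 arrays), where 12.2% of all probe sets were called. The median difference was 0.66 over the 10, against 0.03 over all probe sets. GH3.1, whose auxin-induced product joins auxin with amino acids, was called higher at 24 h as EXPA8 was and stayed 4.07 to 5.04 above 0 h at each time to 96 h, against 0.25 to 0.49 for EXPA8 from 72 h on. GH3.3, of the same family, rose earlier, by 6.14 ± 0.22 at 12 h (SE, n = 3), when EXPA8 did not pass.

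Cell type markers give the background to these courses. The 4 tracheary element markers measured, of 22 listed, were IRX15-L, PRX52, IRX15 and GUT2, and their summed log2 signal was 6.37 to 8.55 at 0 h, 8.63 to 9.32 at 36 h, 12.4 to 13.6 at 48 h and 15.0 to 17.7 at 60 h. The members moved apart: at 36 h PRX52, a peroxidase gene, was 3.71 ± 0.63 above 0 h and IRX15-L differed by -2.33 ± 0.33 (SE, both called), while IRX15 and GUT2 were called at neither 36 h nor 48 h and rose at 60 h (2.65 ± 0.45 and 1.57 ± 0.29). The 3 of 9 dividing cell markers measured summed to 5.21 to 6.23 at 12 h and 12.0 to 13.2 at 36 h, against 12.2 to 14.0 at 0 h. Their sum was 11.3 to 11.9 at 24 h and 14.2 to 14.6 at 72 h. At 24 h PRL was called higher than at 0 h, and AUR1 and AUR2 lower (12.2% of all probe sets were called). The PRL call was lost without the 5 arrays of B with a large GAPDH difference.

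Of the other types, CLE41, the 1 of 4 phloem markers measured, was at 3.70 to 5.90 at 0 h, 5.57 to 7.49 at 12 h, 2.88 to 3.92 at 36 h, 1.88 to 2.09 at 48 h and 1.30 to 2.28 at 60 h. It was called lower than at 0 h at each time from 36 h to 96 h, with differences from -3.44 at 60 h to -1.88 at 36 h. The calls at 36 h, 72 h and 84 h were lost without the 5 arrays of B with a large GAPDH difference. LHCB4.1, the 1 of 5 photosynthetic markers, was at 1.98 to 3.17 at 0 h, 1.27 to 2.11 at 24 h, 2.27 to 3.13 at 36 h, 1.46 to 1.53 at 48 h and 0.65 to 1.87 at 60 h. It was called lower at 60 h among these times (-1.21 ± 0.36, SE). That call was lost without the 5 arrays of B with a large GAPDH difference. The root hair markers EXPA7 and EXPA18, 2 of 4, summed to 1.36 to 1.59 at 60 h, against 0.70 to 1.11 at 0 h, near the floor at both times. EXPA18 did not pass at 60 h (0.19 ± 0.16, adjusted p = 0.504 by limma). No guard cell marker was measured, and no measured marker of any list was at 0 on any array. The part of these cell types in the expansin results was not tested.

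The genes with courses most like that of EXPA8 were sought among 3382 probe sets with 1 annotated gene and time means at least 1 log2 unit apart, by Pearson's r over the 27 arrays. AT5G02140 came first, with r = 0.94, and AGL28, a MADS-box transcription factor gene, second, with r = 0.92. AT1G09390 (0.90), AT2G34060 (0.90) and AT5G66440 (0.88) followed, and without time-course B the 5 values were 0.90 to 0.93. AT5G02140 had a mean log2 signal of 4.06 at 36 h and 0.61 at 72 h, against 0.52 at 0 h. AGL28 had its highest mean at 24 h, 4.56, and AT1G09390 at 48 h, 4.03, against 0.13 and 0.27 at 0 h. The 27 arrays share times and time-courses, so r describes likeness of course and carries no test.

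**Figure D5:**
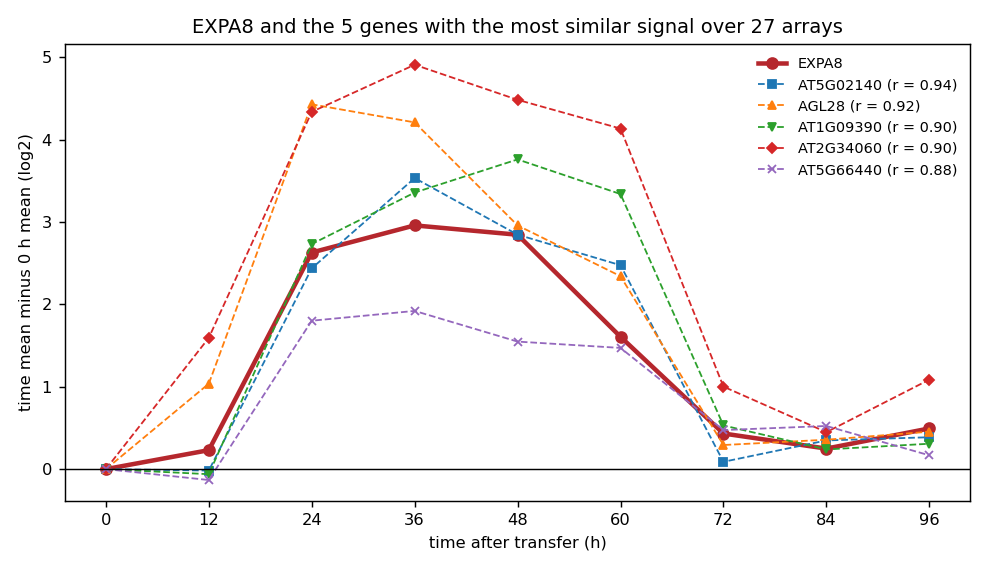
Mean log2 signal at each time minus the 0 h mean for EXPA8 and the 5 genes with the highest Pearson's r to it over 27 arrays (n = 3 per time). All 6 genes stood above 0 h from 24 h to 60 h and had dropped at 72 h, with AT2G34060 and AGL28 already above 0 h at 12 h.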

How the data were processed

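The deposited values are the authors' log2 signals after RMA (background correction, normalization between arrays and probe summary), per the submitters' processing notes. The sources used here do not give RMA's version or settings, and the log base was taken as 2 from the range. Titles gave the time and letter of each array. The table holds 22810 probe sets, of which 64 controls and 3 lacking a value were dropped. With limma 3.58.1 in R 4.3.3 (lmFit, eBayes), checked on simulated data, all 27 arrays entered 1 linear model with a mean for each time, with Benjamini-Hochberg adjustment over 22743 probe sets within each comparison. Intervals are 95% intervals from that fit and cover the spread between arrays.

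The genes and lists were chosen with earlier results of these data known. Other wall-loosening genes are named if called by the F test, at most the 8 with the widest time means. Of the tested probe sets 13511 had 1 annotated gene, 503 had several and 8729 are unnamed here, so that lists are covered in part. Of the 13511, 13434 matched the TAIR10.1 table. Arrays of the same time correlated at 0.936 or above, and no arrays were identical. Precision is limited by the number of arrays.

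The letters pair the samples because the series' design gives each letter to 1 independent time-course. For 108 same-letter pairs of arrays, deviations from time means correlated with a median of 0.246 (from -0.06 to 0.724), and for 216 pairs sharing neither letter nor time with a median of -0.12. Alternatives were median centring, quantile normalization, a filter on time means under 2, the letter as a block, array weights, a variance trend, fits to the compared arrays alone, each array or time-course left out, the GAPDH difference as a covariate, linear values, and, chosen after seeing the data, no array of B with a large GAPDH difference. That last setting leaves time-course B at 12 h to 48 h alone. Comparisons of these times with 0 h or with times from 60 h then join unlike sets of time-courses. A planned comparison of protein sequences was not run, as none were used here.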

Additional observations from a re-analysis of the deposited data

How the results depend on the processing

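EXPA8 at 24 h, 36 h and 48 h against 0 h, at 24 h against 12 h, in deposition against the earlier times and in the F test kept its direction and its call under every alternative run. Over all comparisons and alternatives 2 of 126 called EXPA8 values lost their call and 0 changed sign, while EXPA15 lost 20 of 36, and 33 of 221 EXPA4 values, none called, changed sign. Paired analysis, with the letter as a replicate block, passed EXPA8 at 60 h against 48 h (-1.24), EXPA9 at 60 h (0.43) and EXPA15 at 84 h (0.40), each against a threshold missed without it, and changed no other call of these genes. Array weights passed EXPA8 at 60 h against 48 h (-1.43) and EXPA15 at 48 h (0.35) and ended its 60 h call (0.39). Centring passed EXPA15 at 48 h (0.41) and 84 h (0.43), and quantile normalization ended its 60 h call (0.36). The variance trend ended the EXPA15 calls at 24 h (0.44) and 60 h (0.39) and passed EXPA9 at 60 h (0.43). Fits to the compared arrays alone ended EXPA8 at 60 h (1.61) and EXPA15 at 24 h (0.44) and 60 h (0.39). The GAPDH covariate passed EXPA9 at 60 h (0.43) and EXPA15 at 84 h (0.40) and turned EXPA4 at 24 h (-0.12) and in deposition against the earlier times (0.11). Without the 5 arrays of B, EXPA8 at 60 h against 48 h passed (-1.59), EXPA15 at 60 h did not (0.50) and EXPA4 at 12 h (-0.67) and 24 h (-0.20) turned. EXPA4 at 12 h (0.02) also turned with quantile normalization (-0.0583), array weights (-0.44), the covariate (-0.70) and linear signal (-102 units).

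With single arrays or time-courses left out, EXPA8 ran from -0.0768 (without time-course C) to 0.48 at 12 h, from 1.25 to 1.87 at 60 h and from -1.59 to -0.98 at 60 h against 48 h. EXPA15 ran from 0.34 to 0.53 at 24 h, from 0.27 to 0.50 at 60 h, from 0.22 to 0.50 at 84 h and in F from 1.64 to 3.73, with a call in F without the 72 h array of A and at 84 h without the 0 h array of B or the 84 h array of C, and none at 24 h or 60 h without any 1 time-course. EXPA4 ran from -0.67 to 0.40 at 12 h, from -0.20 to 0.86 at 24 h and from -1.26 to 0.02 at 96 h (0.0157 without time-course A). The causes were not tested. The filter on means under 2 removed EXPA9 and EXPA15. Signals near the floor of 0 limit what can be seen of both, and of falls of EXPA8 below 0 h.

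Counts of all called probe sets that moved by over 1.5 times were, at 60 h against 48 h, 63 with the block, 297 with array weights, 23 with the variance trend, 10 after quantile normalization, 9 with the filter and 1 with the covariate (3 reported). In deposition against the earlier times they were 237 without C, and 2802 and 2602 under other settings (1433 reported). They were at 96 h 1554 with the block and 31 alone (1025 reported) and in the F test 1322 without C (5254 reported). Array weights gave 4248 at 24 h, 4032 at 48 h and 4721 at 24 h against 12 h (2776, 2660 and 2866 reported), and the compared arrays alone gave 2243 at 12 h, 973 at 60 h, 763 at 72 h and 659 at 84 h (3900, 3008, 1494 and 1434 reported).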

Other observations

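The low values of EXPA9 and EXPA15 repeat exactly across arrays. EXPA9 had 24 distinct values on 27 arrays, and 0.45 (the same to every digit) stood on 4 of them, at 24 h, 36 h and 96 h in time-course C and at 48 h in B. EXPA15 also had 24 distinct values, with 0.88 on 4 arrays, at 12 h in A and at 36 h, 84 h and 96 h in C. EXPA4 and EXPA8 had 27 distinct values each. Of all probe sets with a mean signal under 0.5, 71% held an exactly repeated value above 0, against 15.9% of those with a mean of 4 or over.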
